A study of Homo sapiens with 6 samples.

Results

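AP-1 and the immediate early factors form the response that a cell mounts first to a new signal, and the 10 genes described here, JUN, JUNB, JUND, FOS, FOSB, FOSL1, FOSL2, ATF3, EGR1 and IER2, were taken by symbol from a table of 78304 genes. Each symbol had a single row. Polyadenylated RNA had been sequenced from wild-type Huh7, an established human liver cancer cell line. The 3 treated libraries came from cells given the compound 16'-DEC for 24 h, and the 3 control libraries from cells given DMSO for 24 h; all cells had first been left in their plates for 24 h. The labels give neither a dose nor a structure for 16'-DEC, and nothing in them tells whether replicates came from separate cultures, so p-values below reflect spread among these libraries alone. The series' design text names the mechanism of the compound's activity against this cancer as its question, which the comparison addresses through transcript levels.

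AP-1 is a family of dimeric transcription factors built from basic leucine zipper (bZIP) proteins. A JUN protein pairs with another JUN protein, with a FOS protein or with an ATF protein, and the choice of partner sets which DNA sites are bound and how strongly. The genes of several of these proteins are transcribed within minutes of growth factor or stress signals through MAP kinases, serum response factor and CREB-type factors already in the cell, and their transcripts are short-lived. EGR1, a zinc finger factor, and IER2, a nuclear protein of less defined function, are induced in the same early wave. In liver, JUN is known for its part in hepatocyte proliferation and in hepatocellular carcinoma.

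The labelled cell type was checked by its markers: all 15 hepatocyte markers listed had a mean of 1 TPM or more (TPM is an abundance per transcript length, scaled to a fixed sum), and their summed level was 22505 to 23657 TPM with 16'-DEC and 20093 to 20688 TPM in DMSO. APOA2 carried that sum, at a mean of 12700 TPM with 16'-DEC and 7692 TPM in DMSO. Singly, by the test given below, 6 of the 15 rose, 6 fell and 3 did not pass. In that test 22.7% of all tested genes were called higher and 48.9% lower. Among the markers that fell, AFP was at a mean of 965 TPM with 16'-DEC and 2721 TPM in DMSO, and APOB at 196 and 627 TPM. With GC content and length removed and library means kept, 2 markers rose and 9 fell, beside 13.5% of tested genes called higher. When the same adjustment also re-centred the libraries, 7 rose and 5 fell, beside 34.5%. Scaled by median of ratios, 9 rose and 5 fell, beside 37.1%. Quantile normalized, 9 rose and 6 fell, beside 41.8%. No share of all tested genes called lower is given for these alternative fits. Of 12 markers of fibroblasts, immune and endothelial cells, 2 had a mean of 1 TPM or more. Their summed level was 38.4 to 47.1 TPM with 16'-DEC and 19.2 to 22.04 TPM in DMSO, most of it CD68; CD3E, which marks T cells, was listed at 0 in all 6 libraries. The rise of the summed level was that of CD68, at a mean of 40.7 TPM with 16'-DEC and 16.8 TPM in DMSO. PDGFRB, the other marker that reached 1 TPM, was at 1.25 and 1.76 TPM and did not pass. The part of such cells in the results was not tested. TPM keep no depth, so the number of reads behind a value is not known. Genes at 1 TPM or more numbered 13131 to 13459 in the 16'-DEC libraries and 14936 to 15118 in those of DMSO. When libraries were weighted by their scatter, library 3 of 16'-DEC had the lowest weight, 0.36, against 0.76 to 1.71 for the others. Library 3 of DMSO stood apart: 36 genes with a symbol had at least 5 TPM there and at least 10 times the highest value of the other 5 libraries, against 0 to 2 such genes in each of the others. They included the globin gene HBG2, at 10.7, 13.4 and 14.1 TPM with 16'-DEC and at 5.75, 5.12 and 590 TPM in DMSO. Results for the factors are therefore also given without that library. Since these are bulk samples, fewer cells of a kind and less RNA per cell cannot be told apart.

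Most of the factors were higher after 16'-DEC, but not in 1 of the alternative fits: with GC content and length removed and library means kept, 3 of 9 were called higher, beside 13.5% of tested genes. JUNB and FOS then did not pass, and JUN, EGR1, IER2 and FOSL2 lay below 0. The median of the factors was 0.11 in that fit, against -0.37 over all tested genes. Of the 10, 9 had a mean of 1 TPM or more and were tested, and of these 8 rose, 0 fell and 1, FOSL2, did not pass (limma on log2(TPM + 1), adjusted p below 0.05 over 14275 genes). In the same fit 22.7% of all tested genes were called higher and 48.9% lower. The tested factors had a median change of 0.65 on the log2(TPM + 1) scale, against -0.31 over all tested genes. Without library 3 of DMSO, the same number rose, 8 of 9, with 21.5% of all genes called higher and a median of 0.67 for the factors. Leaving out each library in turn gave 8 to 9 factors higher, beside 19.4%, 20.2% and 24% of tested genes without 16'-DEC libraries 1, 2 and 3, and 20%, 22% and 21.5% without those of DMSO. With the replicate number as a block 8 were higher, beside 21.1% of tested genes. Treated and control libraries lay fully apart for 9 of the 10, all but FOSL2, and for 8 of the 9 tested, beside 24.3% of tested genes. Of all genes above 0 in any library, 10.2% had every 16'-DEC library above every DMSO library.

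**Figure D1:**
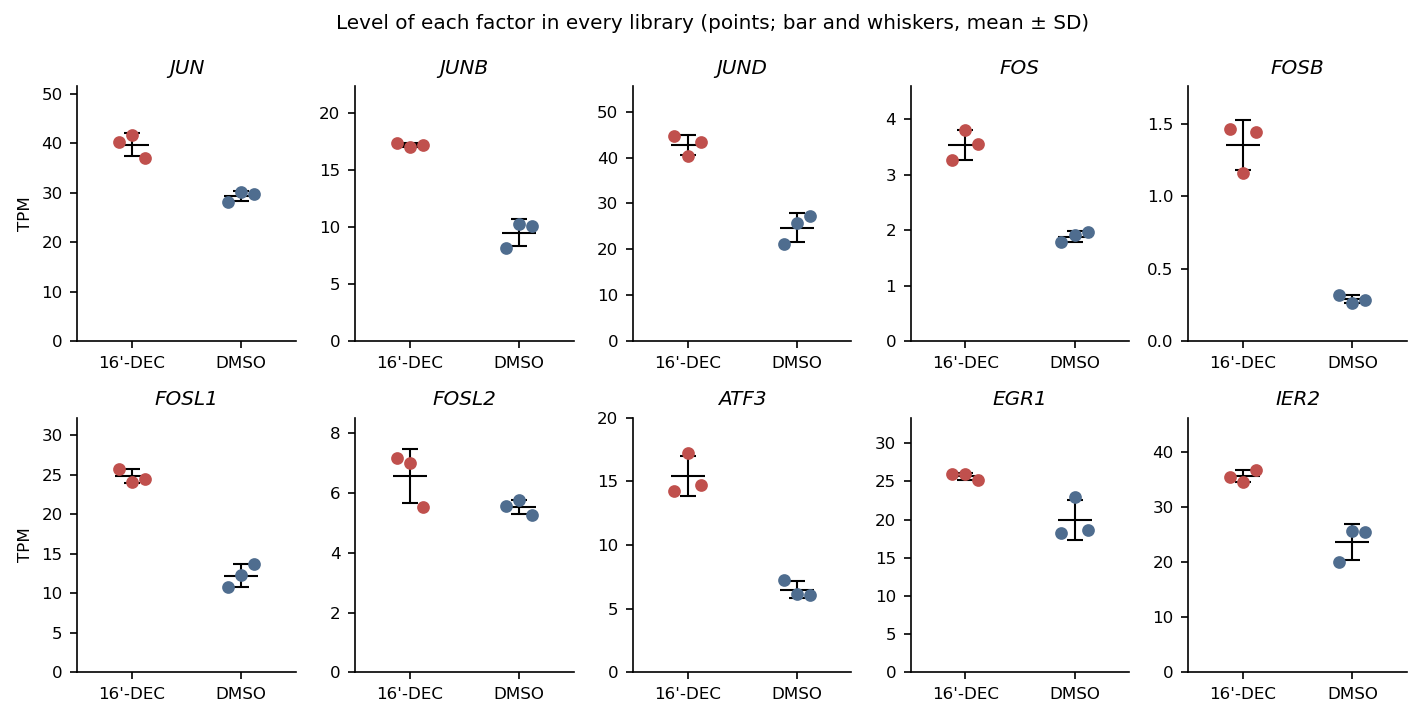
TPM of each of the 10 factors (vertical axis, from 0, scaled per gene) in the 3 libraries of 16'-DEC and the 3 of DMSO; points are libraries, and the bar with whiskers is the mean ± SD. The 16'-DEC points lie above all DMSO points in every panel but that of FOSL2, where a 16'-DEC library at 5.52 TPM lies among the DMSO libraries; JUN, EGR1 and IER2 turn below 0 with GC content removed and library means kept.

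The JUN genes encode core members of AP-1, and all 3 rose, although with GC content removed and library means kept JUND alone passed. JUN, which encodes c-Jun, the founding member, was at 40.2, 41.7 and 37.1 TPM with 16'-DEC, against 28.2, 30.1 and 29.8 TPM in DMSO. The groups did not overlap, but its means differed by 1.35-fold (39.7 ± 2.35 against 29.4 ± 1.01 TPM, SD, n = 3 each), a change of 0.42 ± 0.0787 on the log2(TPM + 1) scale (± SE, limma adjusted p = 0.00113). JUND, which encodes a form with high basal expression in many cells, was at 44.7, 40.4 and 43.4 TPM with 16'-DEC, against 21.2, 25.8 and 27.2 TPM in DMSO. Each treated library exceeded every control by at least 1.48-fold, and the change was 0.77 ± 0.104 (limma adjusted p = 1.48e-04). JUNB, whose product often opposes c-Jun in cell division, was at 17.4, 17.0 and 17.2 TPM with 16'-DEC, against 8.16, 10.3 and 10.1 TPM in DMSO. This was a 1.81-fold difference of means and a change of 0.80 ± 0.101 (limma adjusted p = 1.05e-04). Exons of JUNB overlap those of HOOK2 on the opposite strand, and no strand marking is described for the libraries, so reads of the pair cannot be told apart. HOOK2 fell, at a mean of 5.22 TPM with 16'-DEC and 8.44 TPM in DMSO (change -0.60, limma adjusted p = 3.99e-04).

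JUN lies on chromosome 1 (58780788 to 58784327), JUNB on chromosome 19 (12791496 to 12793315) and JUND on the same chromosome (18279760 to 18281622; GRCh38, GENCODE 29, as for all gene positions), and each is a single exon. The sequence before their starts is shown because it holds the kind of site at which JUN and ATF or CREB proteins are known to act. Windows run from 250 bases before the RefSeq start to 20 after it, on the coding strand (RefSeq, GRCh38.p14): chr1:58784028-58784297 (minus strand) for JUN and chr19:18281603-18281872 (minus strand) for JUND. Capitals mark matches, on either strand, to the cyclic AMP response element (CRE) TGACGTCA, its core TGACGT, the variant TGACATCA, the AP-1 site TGANTCA, the EGR site GCGNGGGCG or the CArG box, the binding site of serum response factor. The set of motifs was settled with these windows in view.
JUN: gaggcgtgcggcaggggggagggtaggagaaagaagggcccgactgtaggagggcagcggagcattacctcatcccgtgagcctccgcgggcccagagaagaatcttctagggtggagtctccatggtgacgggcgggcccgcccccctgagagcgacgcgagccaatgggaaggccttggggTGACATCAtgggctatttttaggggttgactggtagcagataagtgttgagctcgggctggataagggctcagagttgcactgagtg
JUND: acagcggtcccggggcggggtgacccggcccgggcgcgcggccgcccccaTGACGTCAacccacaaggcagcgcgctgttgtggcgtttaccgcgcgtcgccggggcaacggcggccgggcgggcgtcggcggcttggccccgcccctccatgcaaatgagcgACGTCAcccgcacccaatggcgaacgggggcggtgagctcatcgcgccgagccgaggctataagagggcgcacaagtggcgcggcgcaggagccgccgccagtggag
The JUN window holds the variant at -67 (in bases from the start), a match found in 2.51% of the 34943 RefSeq windows of this length. The JUND window holds a full CRE at -200 (1.82% of all windows) and a further CRE core at -87. The JUNB window held none of the 6 motifs. A match describes the letters and does not show that a factor was bound.

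The FOS genes encode proteins that pair with JUN proteins to bind DNA. FOSL1 (FRA1; chromosome 11, 65892049 to 65900573) was the most abundant of them in all 6 libraries. It was at 25.8, 24.1 and 24.5 TPM with 16'-DEC, against 10.8, 12.3 and 13.7 TPM in DMSO. The means differed by 2.02-fold (24.8 ± 0.874 against 12.2 ± 1.48 TPM) and the change was 0.97 ± 0.0996 (limma adjusted p = 2.84e-05). FOS (c-Fos; chromosome 14, 75278774 to 75282230), the classic transient member, was low in both groups, at 3.27, 3.81 and 3.55 TPM with 16'-DEC and 1.78, 1.91 and 1.97 TPM in DMSO. Its means differed by 1.88-fold and its change was 0.65 ± 0.112 (limma adjusted p = 6.73e-04). FOSB (chromosome 19, 45467995 to 45475179), which encodes FosB and its long-lived truncated form, showed the highest ratio of means of the 10, 4.71-fold, at the lowest level. It was at 1.46, 1.16 and 1.44 TPM with 16'-DEC, against 0.316, 0.263 and 0.284 TPM in DMSO. Its mean over the 6 libraries, 0.821 TPM, kept it out of the main fit. In the fit of all 39343 genes above 0 in any library it was called higher (change 0.87 ± 0.12, limma adjusted p = 0.00247), beside 7.6% of all genes. FOSB shares its locus with ERCC1 on the other strand, without exon overlap, and ERCC1 was at 65.8 TPM with 16'-DEC and 32.1 TPM in DMSO. FOSL2 (FRA2; chromosome 2, 28392448 to 28417312) was at 7.16, 6.997 and 5.52 TPM with 16'-DEC and 5.57, 5.76 and 5.27 TPM in DMSO. These groups overlapped, and its change of 0.20 ± 0.114 did not pass (limma adjusted p = 0.139); without library 3 of 16'-DEC, the low one, it passed (0.31, limma adjusted p = 0.0174).

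Windows before FOS (chr14:75278578-75278847, plus strand), FOSB (chr19:45467746-45468015, plus strand) and FOSL2 (chr2:28392608-28392877, plus strand) are shown with the same marking because all 3 carry the CRE core at a like distance from the start.
FOS: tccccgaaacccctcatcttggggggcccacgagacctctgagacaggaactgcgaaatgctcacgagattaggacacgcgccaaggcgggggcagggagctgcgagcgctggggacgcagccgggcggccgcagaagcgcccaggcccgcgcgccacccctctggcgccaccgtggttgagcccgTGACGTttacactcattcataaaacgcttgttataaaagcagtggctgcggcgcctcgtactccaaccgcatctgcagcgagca
FOSB: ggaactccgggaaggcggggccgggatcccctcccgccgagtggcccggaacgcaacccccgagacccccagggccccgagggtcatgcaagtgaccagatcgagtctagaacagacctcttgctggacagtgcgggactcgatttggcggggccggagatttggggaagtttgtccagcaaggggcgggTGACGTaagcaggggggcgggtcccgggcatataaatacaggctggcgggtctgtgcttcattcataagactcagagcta
FOSL2: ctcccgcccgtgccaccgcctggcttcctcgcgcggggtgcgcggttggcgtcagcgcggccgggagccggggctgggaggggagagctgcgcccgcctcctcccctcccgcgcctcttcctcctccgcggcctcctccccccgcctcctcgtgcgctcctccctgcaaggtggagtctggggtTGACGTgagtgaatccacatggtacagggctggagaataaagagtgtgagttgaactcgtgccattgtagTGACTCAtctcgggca
The core TGACGT, which is also the first part of the full CRE, stood at -64 in FOS, at -60 in FOSB and at -66 in FOSL2. FOSL2 also holds an AP-1 site 5 bases after its start, a match in 7.14% of all windows. The ratios of means of these genes were 1.88, 4.71 and 1.19. Across the 9 factors with an entry, all but FOSL1, 5 (JUND, FOS, FOSB, FOSL2 and EGR1) held the core. That is 5 of their 10 windows, beside 7.63% of all windows. The GC content of these 5 windows ran from 63.3% (FOSB) to 74.8% (JUND), against a median of 58.1% over all windows. Since the motifs were settled with the windows in view, the count is a description only.

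ATF3 (chromosome 1, 212565334 to 212620777), a stress-induced bZIP factor that pairs with JUN proteins and often represses, had the largest change of the 9 tested factors. It was at 14.2, 17.2 and 14.7 TPM with 16'-DEC, against 7.28, 6.13 and 6.06 TPM in DMSO. The lowest treated library was 1.96-fold above the highest control. The means differed by 2.37-fold (15.4 ± 1.58 against 6.49 ± 0.684 TPM) and the change was 1.13 ± 0.109 (limma adjusted p = 1.84e-05), rank 241 from the highest among 14275 genes. EGR1 (chromosome 5, 138465490 to 138469315) changed least of the factors that passed. It was at 25.9, 25.9 and 25.2 TPM with 16'-DEC, against 18.2, 23.0 and 18.6 TPM in DMSO. The treated libraries were tight and the controls spread, with a 1.29-fold difference of means and a change of 0.36 ± 0.101 (limma adjusted p = 0.011). IER2 (chromosome 19, 13150415 to 13154908) was at 35.5, 34.5 and 36.7 TPM with 16'-DEC, against 19.95, 25.6 and 25.5 TPM in DMSO. Its means differed by 1.5-fold and its change was 0.57 ± 0.106 (limma adjusted p = 0.00107). Exons of IER2 overlap those of AC011446.2 on the other strand, which averaged 0.0507 TPM with 16'-DEC and was listed at 0 in DMSO.

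The windows of ATF3 (chr1:212565157-212565426, plus strand, the first of the 2 RefSeq starts searched) and EGR1 (chr5:138465229-138465498, plus strand) are set side by side as those of the most and the least changed of the factors that passed.
ATF3: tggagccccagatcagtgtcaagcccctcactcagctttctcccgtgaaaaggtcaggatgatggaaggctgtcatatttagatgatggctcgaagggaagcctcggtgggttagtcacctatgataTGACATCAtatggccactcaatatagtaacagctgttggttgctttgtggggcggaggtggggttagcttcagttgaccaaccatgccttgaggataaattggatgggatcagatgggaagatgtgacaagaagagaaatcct
EGR1: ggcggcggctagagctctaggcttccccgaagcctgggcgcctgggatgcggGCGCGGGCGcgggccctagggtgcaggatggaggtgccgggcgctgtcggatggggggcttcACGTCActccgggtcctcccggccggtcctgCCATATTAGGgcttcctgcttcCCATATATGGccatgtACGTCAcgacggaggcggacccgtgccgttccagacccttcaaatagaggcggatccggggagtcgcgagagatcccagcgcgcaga
The first ATF3 window carries the variant TGACATCA also seen before JUN, here at -123. The window of the second ATF3 start searched (chr1:212614768-212615037) held none of the 6 motifs. No other start of ATF3 was searched, and which start these cells used was not tested. The EGR1 window carries 2 CArG boxes, at -105 and -83, 2 CRE cores, at -136 and -67, and an EGR site at -198 (8.8% of all windows). CArG boxes were found in 1.22% of all windows and in no other window of the factors. Sites more than 250 bases before a start were not searched, and FOSL1 had no window. The IER2 window held none of the 6 motifs.

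The balance within each family shifted with the unequal changes. The JUN family summed to 102, 99.1 and 97.6 TPM with 16'-DEC, against 57.5, 66.1 and 67.0 TPM in DMSO. JUN made up 39.8% ± 2.08 of that sum with 16'-DEC and 46.3% ± 2.4 in DMSO (SD, n = 3 each), and JUND 42.9% ± 1.94 and 38.8% ± 1.89. Both shares had no overlap between the groups. The FOS family summed to 37.7, 36.1 and 35.0 TPM with 16'-DEC, against 18.4, 20.2 and 21.2 TPM in DMSO. FOSL1 made up 68.4% ± 1.57 of it with 16'-DEC and 61.2% ± 3.12 in DMSO, and FOSL2 18.1% ± 1.99 and 27.9% ± 2.76. FOS held about the same part, 9.79% ± 0.997 with 16'-DEC and 9.46% ± 0.194 in DMSO, and its groups overlapped. JUN family transcripts outnumbered FOS family transcripts by 2.75 ± 0.0374 with 16'-DEC and by 3.18 ± 0.0766 in DMSO, again without overlap. These sums and shares are descriptions and were not tested.

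**Figure D2:**
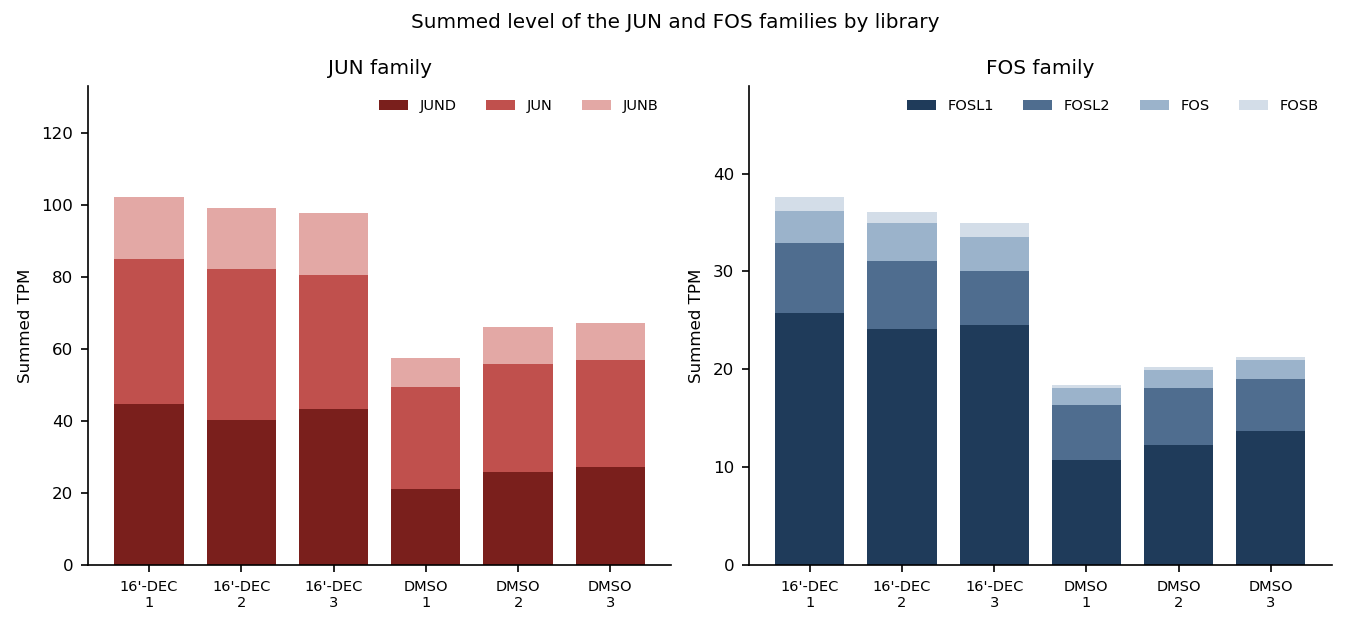
Summed TPM (vertical axis, from 0) of the JUN family (left panel) and the FOS family (right panel) in each library, stacked by gene, with the 3 libraries of 16'-DEC left of the 3 of DMSO. Every 16'-DEC bar is taller, from 97.6 TPM for the JUN family and from 35.0 TPM for the FOS family, and FOSL1 fills most of each FOS family bar.

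Since TPM are per length, levels can be ordered between genes. With 16'-DEC the order by mean TPM was JUND, JUN, IER2, EGR1, FOSL1, JUNB, ATF3, FOSL2, FOS and FOSB. The ranges of JUND and JUN, of EGR1 and FOSL1, and of JUNB and ATF3 overlapped; within a library, JUND was above JUN and JUNB above ATF3 in 2 of 3, and EGR1 above FOSL1 in 3 of 3. In DMSO JUN stood above JUND without overlap (lowest 28.2 against highest 27.2 TPM). The ranges of JUND and IER2 and of IER2 and EGR1 overlapped there, although JUND was above IER2, and IER2 above EGR1, in each of the 3 libraries. The remaining order was the same in both groups, and FOSL1, at 10.8 to 13.7 TPM in DMSO, came up to the range of EGR1 with 16'-DEC.

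The factors share features that go with the change across the whole table. All 10 have a transcript GC content above the median of tested genes (48.8%), from 50.8% for ATF3 to 69.7% for JUND. Tested genes with a GC content of 50% to 60%, the range of 6 of the factors (5 of them tested, since FOSB was below the filter), had a median change of 0.14 and 39.8% were called higher; those above 60%, the range of the other 4, had a median of 0.27 and 46.9% called higher. In comparison, genes from 40% to 50% had a median of -0.62 and 10.2% called higher. The part of GC content in the change of the factors was not tested, and fits with it removed are set beside the main one. A spline on GC content and transcript length was removed from each library, which also re-centred the libraries. All 9 tested factors were then called higher, beside 34.5% of tested genes. The median of the factors was 0.49, against 0.020 over all tested genes. When the same spline was removed and the mean of each library kept, an alternative chosen after seeing the data, 3 were called higher, ATF3 (0.75), FOSL1 (0.26) and JUND (0.23), beside 13.5% of tested genes; the median of the factors was 0.11, against -0.37 over all tested genes. JUN (-0.076), EGR1 (-0.12), IER2 (-0.065) and FOSL2 (-0.085) then lay below 0 without passing. The forms of the adjustment differ only by a constant per library, so every gene's change shifts by the same amount between them. JUN went from 0.31 to -0.076 and ATF3 from 1.13 to 0.75. Scaled by median of ratios or quantile normalized, all 9 were called higher, beside 37.1% and 41.8% of tested genes. The medians of the factors were 0.91 and 1.12, against -0.015 and 0.099 over all tested genes.

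**Figure D3:**
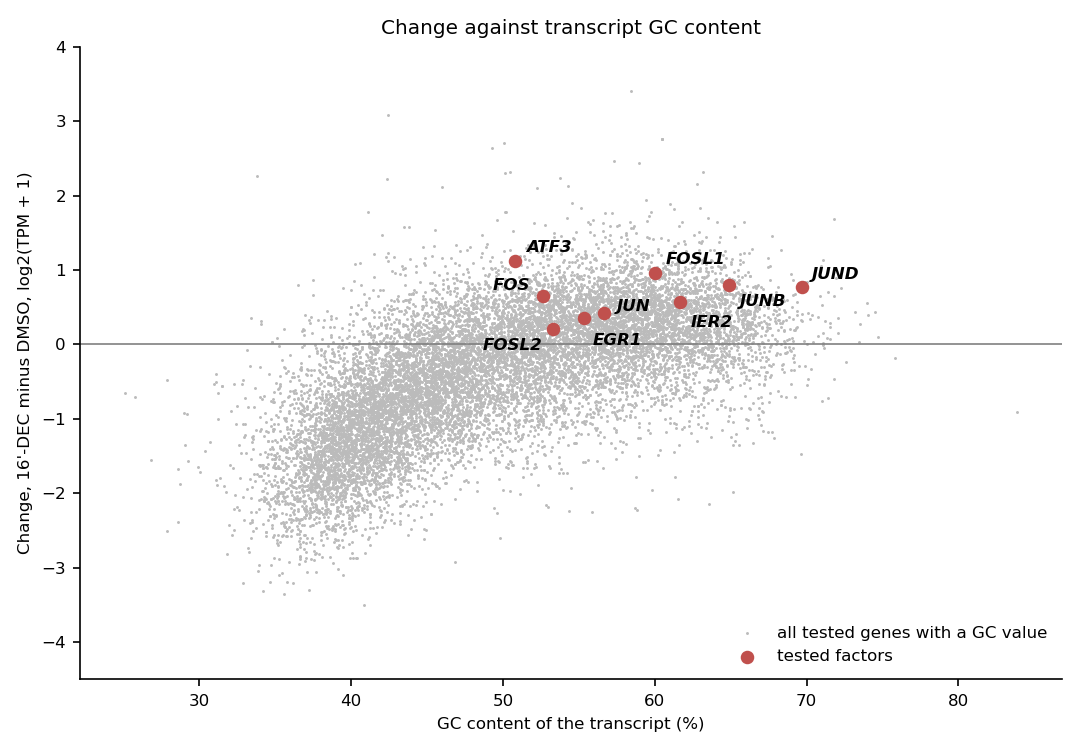
Change of each tested gene (16'-DEC minus DMSO, log2(TPM + 1), vertical axis) against the GC content of its transcript in percent; grey points are all tested genes with a GC value and red points the 9 tested factors. The red points lie to the right of 50% and above 0, with ATF3 at 1.13 highest for its GC content of 50.8%.

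**Figure D4:**
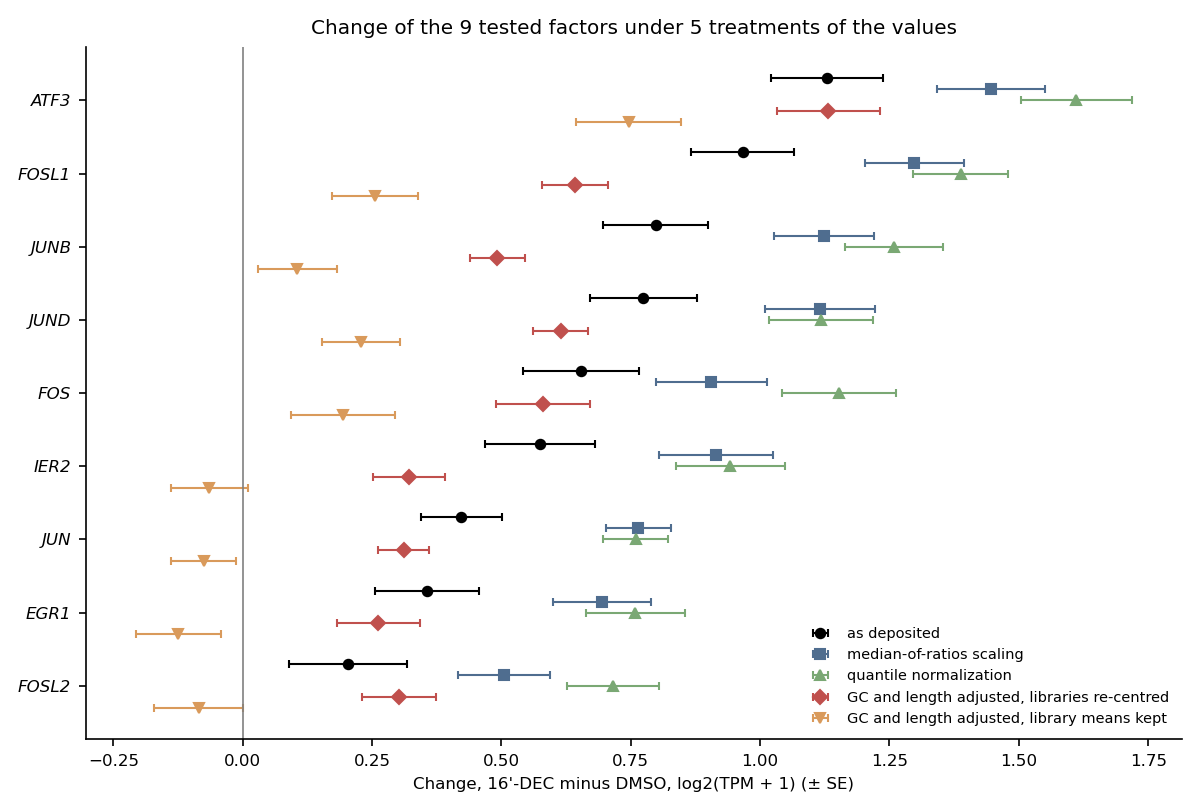
Change of the 9 tested factors (horizontal axis, 16'-DEC minus DMSO on the log2(TPM + 1) scale, ± SE) as deposited, with 2 other scalings and with both forms of the GC and length adjustment. ATF3, FOSL1, JUNB, JUND and FOS stay right of 0 in all of them, while IER2, JUN, EGR1 and FOSL2 lie left of 0 when the library means are kept.

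The genes are also compact. JUN, JUNB, JUND and IER2 have a single exon in the transcript used, as do 1.85% of tested coding genes, and 9 of the 10, all but ATF3, span less than the median of tested coding genes (31.7 kb). AU-rich pentamers (ATTTA), known from short-lived transcripts, were in the 3' UTR of 9 of the 10, all but IER2, as in 68.0% of tested coding genes. FOS had the densest set, 5 in 806 bases, or 6.2 per kb, against a median of 1.58 per kb over tested coding genes, and JUNB had 4.0 per kb. The median over the factors, 1.68 per kb, was close to that of all tested coding genes.

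Other genes of the same circuit went both ways, where the share of calls for all tested genes was 22.7% higher and 48.9% lower. The share called lower is given for the main fit alone, so lower counts in other fits have no share beside them. Among other bZIP genes, 20 of 24 passed the filter; 6 rose, 9 fell and 5 did not pass (median change 0.030). Scaled by median of ratios or quantile normalized, 11 were higher and 6 lower, beside 37.1% and 41.8% of all tested genes called higher. The medians of these bZIP genes were then 0.36 and 0.38, against -0.015 and 0.099 over all tested genes. The small MAF genes MAFF and MAFK, whose products pair with NRF2 and with FOS proteins, rose by 1.44 and 0.91 (MAFF at 23.4 ± 0.887 TPM with 16'-DEC and 8.0 ± 0.9 TPM in DMSO), and BATF, which pairs with JUN proteins, was at 24.9 ± 0.986 TPM with 16'-DEC and 9.73 ± 1.53 TPM in DMSO. ATF1, a CREB-type factor, CEBPG and NFE2L2, which encodes NRF2, fell, with changes of -1.66, -1.28 and -1.47 (limma adjusted p from 4.81e-07 to 2.9e-05 for these 6). ATF1 did not pass after the GC and length adjustment (-0.13, limma adjusted p = 0.122), and CEBPG was then at -0.54. Among other immediate early genes, 23 of 30 passed the filter. Of these, 9 rose, 7 fell and 7 did not pass (median change 0.18). With GC content removed and library means kept, 7 were higher and 11 lower, beside 13.5% of tested genes called higher. The median of these early genes was then -0.17, against -0.37 over all tested genes. DUSP1, a phosphatase that switches off JNK and p38, was at 34.2, 37.4 and 35.6 TPM with 16'-DEC, against 8.45, 9.49 and 9.87 TPM in DMSO, a change of 1.84 ± 0.0882 (limma adjusted p = 3.35e-07). PPP1R15A (GADD34) rose by 1.03 and CSRNP1 by 1.11. SGK1, a serum-induced kinase, CCN2 (connective tissue growth factor) and KLF10 fell, with changes of -1.34, -1.05 and -0.77. After the GC and length adjustment, SGK1 was at -0.77 and KLF10 at -0.26.

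Kinases and factors that act upstream also went both ways, beside 22.7% of all tested genes called higher and 48.9% lower. Here too, lower counts outside the main fit have no share of all tested genes beside them. Of 29 listed, 26 passed the filter; 8 rose (30.8%), 12 fell and 6 did not pass (median change -0.19). The median was 0.25 after the GC and length adjustment (14 higher and 7 lower), 0.097 scaled by median of ratios and 0.24 when quantile normalized. Over all tested genes those medians were 0.020, -0.015 and 0.099, and 34.5%, 37.1% and 41.8% were called higher. MAP2K2 (MEK2) and MAPK3 (ERK1), kinases of the growth factor route, rose by 0.92 and 0.84, and RPS6KA1, a kinase that ERK activates, by 0.78. MAPK3 did not pass with GC content removed and library means kept (0.12, limma adjusted p = 0.239). MAP3K7 (TAK1), MAP3K1 and ELK3, a ternary complex factor, fell, with changes of -1.54, -1.49 and -1.08. MAP3K7 was at 13.0 ± 0.689 TPM with 16'-DEC and 39.7 ± 2.61 TPM in DMSO; its GC content is 38.7%, and its change was -0.15 after the GC and length adjustment, which also brought MAP3K1 to -0.53 and ELK3 to -0.17. Among genes of turnover and restraint, 21 of 22 passed the filter; 4 rose, 8 fell and 9 did not pass (median change -0.033). The counts were 9 higher (42.9%) and 6 lower when scaled by median of ratios or quantile normalized. They were 11 higher (52.4%) and 6 lower after the GC and length adjustment. In those fits 37.1%, 41.8% and 34.5% of all tested genes were called higher. Turnover genes that rose in the main fit included DUSP1, DUSP5, a nuclear ERK phosphatase (0.99), and ZFP36 (0.55). ZFP36 (tristetraprolin) binds AU-rich elements and speeds the decay of early transcripts. ZFP36 lay at -0.11 when GC content was removed and library means were kept. UBE3A, a ubiquitin ligase, DUSP6, a cytoplasmic ERK phosphatase, and ITCH, a ubiquitin ligase for JUN proteins, fell, with changes of -1.60, -1.09 and -1.20, although after the GC and length adjustment ITCH was at 0.17 and called higher, and UBE3A at -0.25 and DUSP6 at -0.66.

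In a list chosen with earlier results of these data known, genes known as AP-1 targets rose more often than they fell. Of 34 listed, 25 passed the filter. Of these, 16 rose (64%), 5 fell and 4 did not pass, beside 22.7% of all tested genes called higher and 48.9% lower. The median change of the targets was 0.48, against -0.31 over all tested genes. With GC content removed and library means kept, 12 rose and 5 fell, beside 13.5% of tested genes called higher. Without library 3 of DMSO, 14 rose and 4 fell, beside 21.5% of tested genes called higher. No share of all tested genes called lower is given for these alternative fits. S100A11, a calcium-binding protein, was at 776, 763 and 858 TPM with 16'-DEC, against 219, 271 and 247 TPM in DMSO, a change of 1.70 ± 0.0912 (limma adjusted p = 5.8e-07). PLAUR, the urokinase receptor, was at 14.4 ± 0.0963 TPM with 16'-DEC and 5.34 ± 0.266 TPM in DMSO, and NQO1, also a target of NRF2, rose by 0.86. VEGFA, an angiogenic factor, SPP1 (osteopontin) and CCND1 (cyclin D1) fell, with changes of -1.32, -1.08 and -0.95. SPP1 was at -0.14 after the GC and length adjustment (limma adjusted p = 0.1). Several classic targets, MMP1, MMP3, MMP9 and MMP13 among them, were below the filter, and IL6 was listed at 0 in all 6 libraries. VIM was among the 5 that fell, with 0.334, 1.03 and 0.221 TPM with 16'-DEC and 1.46, 2.09 and 13.1 TPM in DMSO, where library 3 set the mean.

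**Figure D5:**
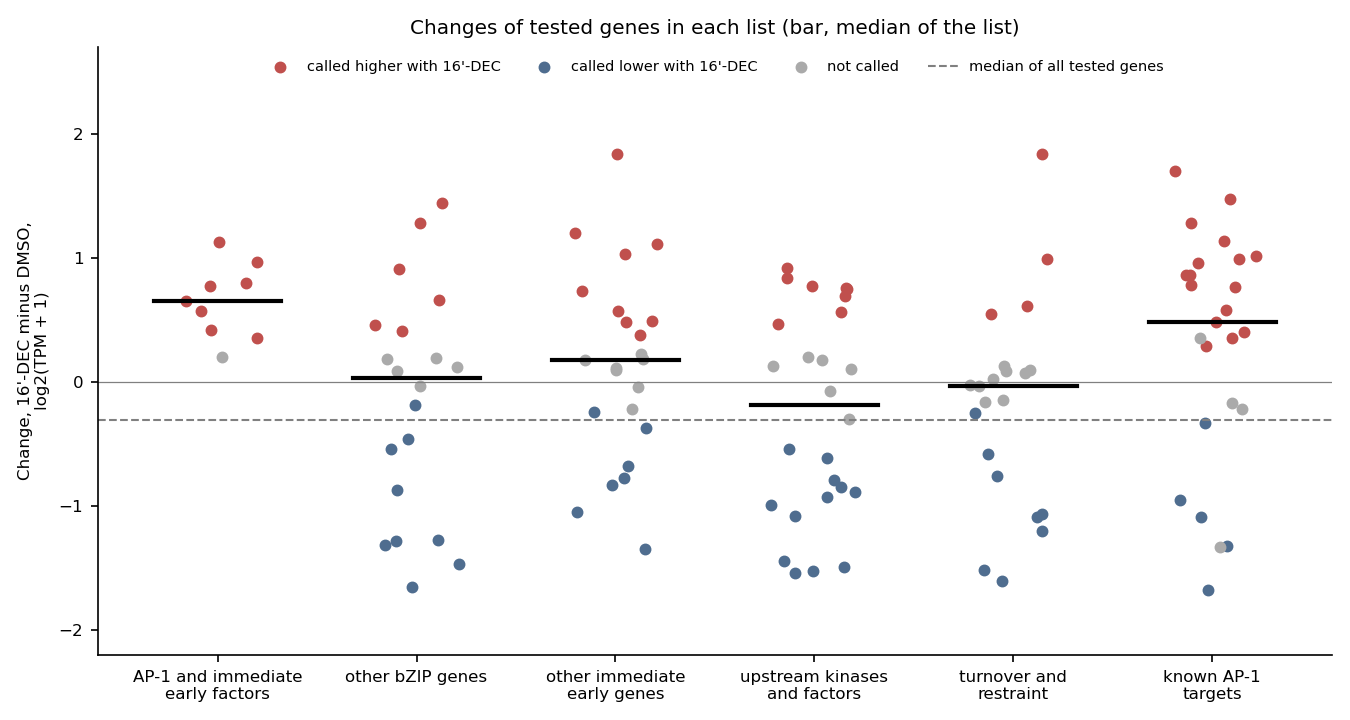
Change of each tested gene (vertical axis, 16'-DEC minus DMSO, log2(TPM + 1)) in the factors described here and in 5 other lists; colour shows the call, the bar the median of the list and the dashed line the median of all tested genes (-0.31). The 9 tested factors lie between 0.20 and 1.13, the only list of the 6 with no gene called lower, and the AP-1 targets have the next highest median at 0.48. All lists were chosen with earlier results of these data known.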

How the data were processed

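The authors deposited 1 table of TPM values for 78304 genes, 35914 of them without a symbol; each library sums to 1000000. Per the submitters' processing notes, the build was GRCh38 and the tools were HTSeq 0.6.1, HISAT2 2.0.1, cutadapt 1.9.1 and DESeq2, without role or order; sources used here give no annotation, gene lengths or strand setting. TPM are relative, so abundant genes that change move the rest. The 14275 genes whose mean was 1 TPM or more were tested on log2(TPM + 1), which understates changes of low genes, with limma 3.58.1 in R 4.3.3 (eBayes with a mean trend, 2-sided, no covariates), adjusted by Benjamini-Hochberg over all of them with a threshold of 0.05. The fit was tested on simulated data. The 10 members and all lists were chosen with earlier results of these data known. From each other list, the up to 3 called genes of smallest adjusted p in each direction with a mean of at least 5 TPM are named, as are the 5 genes most like JUN over the libraries; other genes named were chosen after their values were seen. GC content and length of transcripts were taken from GENCODE 29, 1 transcript per gene, for 93.1% of tested genes; the adjustment removed natural splines (5 degrees of freedom each) from each library and tested those genes alone. Alternatives were other pseudocounts, filters, scalings, variance models, a block, a stricter threshold and leaving out each library. Promoter windows are from RefSeq (GRCh38.p14). Figures used matplotlib 3.10.9.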

Additional observations from a re-analysis of the deposited data

How the results depend on the processing

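Of 170 values of the factors under the 19 alternatives, 158 kept their direction and their side of the threshold. With GC content and length removed and library means kept (chosen after seeing the data), 3 factors were called higher; JUN (-0.076), FOSL2 (-0.085), EGR1 (-0.12) and IER2 (-0.065) turned below 0, and JUNB (0.11, adjusted p = 0.243) and FOS (0.19, adjusted p = 0.114) did not pass. FOSL2 passed with array weights (0.29), quantile normalization (0.72), median-of-ratios scaling (0.50) and the GC and length adjustment (0.30). EGR1 (0.36, adjusted p = 0.011) missed a threshold of 0.01. Without 1 library, 8 to 9 factors were called higher; FOSL2 ran from 0.15 to 0.31, EGR1 from 0.30 to 0.46 and ATF3 from 1.05 to 1.20.

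Counts of the lists moved by over 1.5 times as follows. Median-of-ratios scaling gave 11 other bZIP genes, 14 other immediate early genes and 9 turnover genes higher. Quantile normalization gave 11, 15 and 9, with 13 upstream genes higher and 3 targets lower. The GC and length adjustment gave 4 bZIP genes lower, 14 upstream genes higher and 7 lower, 11 turnover genes higher and 3 targets lower. With library means kept, 11 immediate early genes were lower and 3 upstream genes higher. In these fits, in the same order, 37.1%, 41.8%, 34.5% and 13.5% of all tested genes were called higher. For the lower counts in this paragraph no share of all tested genes is given. A mean of at least 5 TPM and a threshold of 0.01 each gave 3 targets lower; without 1 library, 3 to 6 targets were lower, and 3 without 16'-DEC replicate 1. Of 551 values of the 29 named genes of these lists, 546 were unchanged in call and 2 reversed, ZFP36 (-0.11) and ITCH (0.17). The causes were not tested.

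Deviations from the group mean, compared between libraries of the same replicate number, had correlations of 0.0941, -0.182 and -0.0726. With 3 libraries per group, these values cannot tell whether libraries of the same number shared a batch. With the replicate number as a block, 8 factors were higher, beside 21.1% of tested genes. TPM keep no depth, so the counting error of low genes such as FOSB is not known.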

Other observations

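KLF2, an immediate early factor below the filter, was at 0.934, 1.08 and 1.07 TPM with 16'-DEC, against 0.015 and 0.016 TPM in libraries 1 and 2 of DMSO, and was listed at 0 in library 3; it was chosen after its values were seen and has no test in the main fit. BATF2 and JDP2, further partners of JUN proteins, did not pass (changes 0.20 and -0.032).

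The genes with a symbol and a mean of at least 5 TPM whose log2(TPM + 1) over the 6 libraries was most like that of JUN were BFAR, ACAA2, ATG16L1, RNF114 and DDX47 (Pearson's r from 0.997 to 0.999). BFAR was at 112, 118 and 103 TPM with 16'-DEC, against 69.6, 75.2 and 76.0 TPM in DMSO. With 2 groups the measure mostly reflects the difference between them: 2227 of 9807 candidate genes reached an r of 0.9.

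Besides the globin gene HBG2, library 3 of DMSO had HBE1 at 436 TPM, against 24.2 to 26.7 TPM with 16'-DEC and 10.1 and 15.8 TPM in the other DMSO libraries, and ANXA1 at 23.7 TPM, against 0.249 to 0.597 TPM with 16'-DEC and 0.403 and 0.214 TPM in the other DMSO libraries.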
